A study of Homo sapiens with 6 samples.

Results

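The insulin-like growth factor (IGF) genes described here are 10 of the 34811 genes counted by RNA-seq, taken by symbol as the ligands IGF1 and IGF2, the receptors IGF1R and INSR, and the binding proteins IGFBP2 to IGFBP7. All 10 had a row in the count table and all 10 passed the filter on low counts, which kept 17309 genes. The cells were OVCAR-3, an established human ovarian carcinoma line, carrying a pRS plasmid of the HuSH-29 type with either a scrambled shRNA (OV3/SCR, COX-1 wild-type) or an shRNA against COX-1 (OV3/COX1KD). Both were grown in RPMI-1640 with 10% FBS, and 3 independent passages per condition were sequenced. Each condition was represented by 1 stable clone, OV3/SCR #1 and OV3/COX1KD #2, so effects of the clone and of the knockdown cannot be told apart, and the replicate error below is that between passages of a clone.

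IGF1 and IGF2 are secreted growth factors that act through the receptor tyrosine kinase IGF1R. IGF2, and insulin itself, also act through the insulin receptor INSR, and the receptors can pair with each other as hybrids. The binding proteins hold IGFs outside the cell, where they extend their lifetime and limit or deliver them to receptors, and proteases that cut the binding proteins set the ligands free. In ovarian and other carcinomas the pathway is known for promoting growth and survival through the PI3K-AKT cascade. Culture serum also supplies IGFs, which mRNA counts do not measure.

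Libraries held between 25291505 and 27391538 counts, and 3 counts, the floor used here, corresponded to between 0.113 and 0.120 CPM. These floors cover counting error only. PTGS1, the gene for COX-1, had 713, 658 and 641 counts in OV3/SCR and 456, 486 and 501 in OV3/COX1KD cells. This left 73.3% of the control mRNA level (log2 fold change -0.45, edgeR FDR = 1.3e-06). Lower COX-1 mRNA in these cells is also reported by the study, from RNA-seq and QPCR. The study further reports strongly reduced COX-1 protein in this clone and lower prostaglandin production from arachidonic acid, which mRNA counts do not measure. All 9 listed markers of ovarian carcinoma cells, PAX8, WT1 and MUC16 among them, had at least 425 counts in every library. All 9 also differed between the conditions at an edgeR FDR under 0.01, where 47.9% of all tested genes did. Of them 6 were higher in OV3/COX1KD cells, MUC16 and WT1 included, and 3 were lower, PAX8 included. Summed fibroblast markers lay between 10.9 and 11.6 CPM in OV3/SCR and between 6.72 and 7.43 CPM in OV3/COX1KD cells. COL1A1 alone had a mean of 10.1 CPM in OV3/SCR and 5.93 CPM in OV3/COX1KD cells (edgeR FDR = 5.3e-07). COL1A2 had 4 to 24, DCN 7 to 16 and PDGFRB 2 to 6 counts per library. COL3A1 and LUM were at 0 in every library except OV3/COX1KD replicate 3, with 4 and 1 counts. Summed endothelial markers lay between 2.92 and 4.05 CPM and between 3.91 and 4.73 CPM, and summed leukocyte markers were at most 1.15 CPM. OV3/COX1KD replicate 2 stood somewhat apart from the other libraries of its condition, with chi-square values of 4.81 and 6.28 per degree of freedom against them, where the other same-condition pairs gave 1.82 to 3.18. Without it, 5 of the 10 genes were higher and 4 lower, as with it, and 50.3% of all tested genes were called in place of 47.9%.

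COX-1 knockdown cells had higher ligand and receptor mRNA and lower mRNA of most binding proteins. In bulk RNA, a change in every cell and a change in the share of cells that express a gene cannot be told apart. IGF1, IGF2, IGF1R, INSR and IGFBP7 were up-regulated in OV3/COX1KD cells and IGFBP2, IGFBP3, IGFBP4 and IGFBP5 were down-regulated, while IGFBP6 did not pass the threshold. Thus 9 of 10 genes had an FDR under 0.01 in the edgeR quasi-likelihood fit, adjusted by Benjamini-Hochberg over all tested genes, where 47.9% of all tested genes did. Of the 10 genes, 5 were higher and 4 were lower, against a background of 25.8% higher and 22.1% lower among all tested genes. With the added fold change above 2.5 used by the study, 1 gene (IGFBP7) remained. Of all tested genes, 1.58% were higher by that much and 2.34% lower. The study's figures mark genes from a smaller change on, and its text reports IGFBP3 as reduced and IGFBP7 as increased by the knockdown. Both had these directions here (log2 fold changes -0.89 and 1.70), and IGFBP3, 1.85-fold lower, fell short of 2.5. The TMM-normalized CPM (counts scaled by edgeR to a common library size) of the 2 conditions did not overlap for the same 9 genes, and 63.2% of all tested genes had groups that did not overlap. The 10 genes, like the lists of other genes used here, were chosen with earlier results of these data known. Shares among them are therefore not a fair comparison with all tested genes. The median log2 fold change of the 10 genes was 0.27, and that of all tested genes was -0.0087. Regardless of direction, the median size of the log2 fold change over all tested genes was 0.277. IGF1R, IGFBP2 and IGFBP5 changed by less than that.

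**Figure D1:**
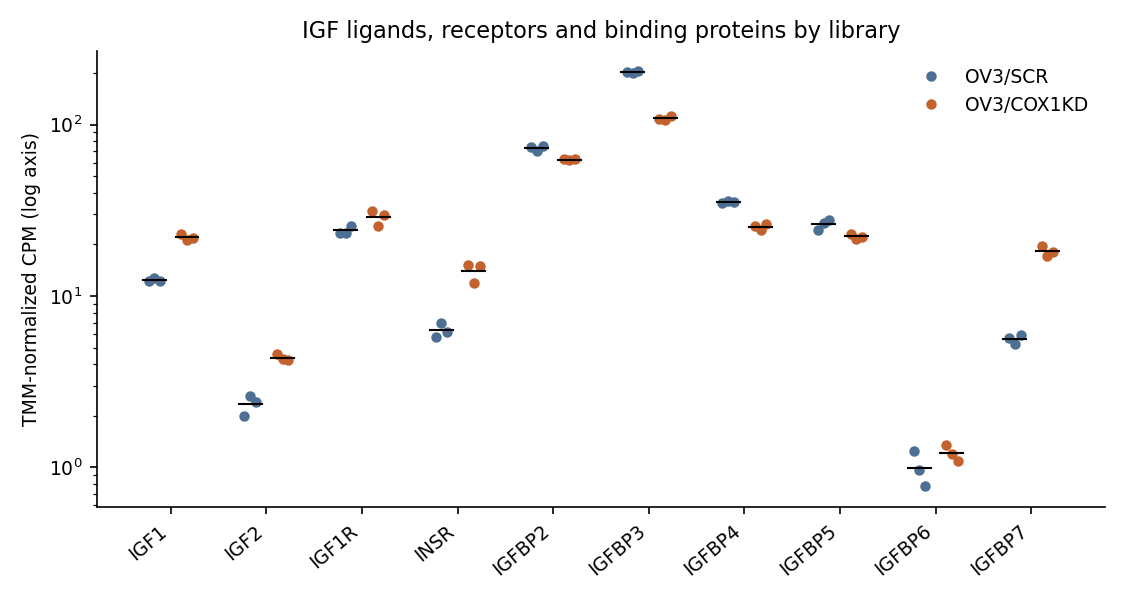
TMM-normalized CPM (log axis) of the 10 genes in each of the 3 OV3/SCR (blue) and 3 OV3/COX1KD (orange) libraries, with black bars at the means. The conditions separate for every gene but IGFBP6, and by very little for IGF1R, where the nearest libraries were both at 25.7 CPM.

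The 250 bases before the start site are shown for the most reduced gene (IGFBP3), for a ligand that rose (IGF1) and for the receptors. The sequences are those of RefSeq on GRCh38.p14, which held an entry for 8 of the 10 genes. They are written 5′ to 3′ on the strand of the gene, and capitals mark matches to GGGCGG (a GC box) or GTAAACA (a FOXO-type motif) on either strand.
IGFBP3 (chr7:45921273-45921522, minus strand): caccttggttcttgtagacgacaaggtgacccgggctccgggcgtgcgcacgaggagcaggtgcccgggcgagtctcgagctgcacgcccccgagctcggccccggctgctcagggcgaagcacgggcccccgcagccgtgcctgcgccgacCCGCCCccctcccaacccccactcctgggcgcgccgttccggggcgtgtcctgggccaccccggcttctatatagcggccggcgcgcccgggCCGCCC
IGF1 (chr12:102481748-102481997, minus strand): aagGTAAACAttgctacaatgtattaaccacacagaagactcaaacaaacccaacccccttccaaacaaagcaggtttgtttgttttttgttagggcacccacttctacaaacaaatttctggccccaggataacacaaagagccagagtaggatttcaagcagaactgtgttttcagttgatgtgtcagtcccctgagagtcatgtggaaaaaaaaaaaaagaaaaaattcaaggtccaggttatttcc
IGF1R (chr15:98648289-98648538, plus strand): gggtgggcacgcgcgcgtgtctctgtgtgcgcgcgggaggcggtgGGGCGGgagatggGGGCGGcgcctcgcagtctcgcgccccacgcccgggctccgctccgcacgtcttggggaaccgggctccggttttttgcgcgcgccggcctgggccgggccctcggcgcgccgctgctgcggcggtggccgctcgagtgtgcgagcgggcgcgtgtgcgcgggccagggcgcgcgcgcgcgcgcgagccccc
INSR (chr19:7294415-7294664, minus strand): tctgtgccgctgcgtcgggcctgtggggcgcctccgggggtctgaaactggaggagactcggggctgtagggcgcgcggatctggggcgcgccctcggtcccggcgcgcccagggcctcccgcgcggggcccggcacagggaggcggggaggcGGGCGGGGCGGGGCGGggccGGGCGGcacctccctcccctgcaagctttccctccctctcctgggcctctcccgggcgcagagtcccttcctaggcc
The receptor promoters had 81.2% (IGF1R) and 78.4% (INSR) G or C, and IGFBP3 had 76.0%, against a median of 58.0% over all promoters. IGF1 had 39.6%. GC boxes were found 2 times for IGF1R, 4 times for INSR, of which 3 overlap, and 2 times for IGFBP3, and 42.6% of all 35116 promoters of this length held at least 1. The IGF1 sequence shown, the most upstream of its 2 entries, held none, but it held 1 GTAAACA, found in 2.98% of all promoters. Across the 8 genes, 6 held a GC box in any entry, 2 (IGF1 and IGFBP6) held GTAAACA and 1 (IGFBP4) held TATAAA, found in 10.7% of all promoters. These counts are per gene over 11 entries, whereas the shares of all promoters are per entry, so they are not directly comparable. The GC box thus occurred both before genes that rose and before genes that fell.

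Both ligand genes were up-regulated. IGF1 (ENSG00000017427, chromosome 12 of GRCh37 from 102789652 to 102875522) was at 12.2, 12.8 and 12.3 CPM in OV3/SCR and at 22.8, 21.2 and 21.8 CPM in OV3/COX1KD replicates 1, 2 and 3. The conditions did not overlap, and the log2 fold change was 0.82 (standard error 0.063, edgeR FDR = 9.9e-10), a level 1.76-fold higher. Exons of an antisense RNA gene, HELLPAR, cover 82.5% of the exon length of IGF1, and where counting ignores strand, reads of such a pair cannot be told apart.

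IGF2 (ENSG00000167244, chromosome 11 from 2150342 to 2179621), a gene expressed from the paternal allele in most tissues, was scarce, with 53, 68 and 62 counts in OV3/SCR and 115, 107 and 113 in OV3/COX1KD cells. Its mean CPM rose from 2.33 ± 0.316 to 4.36 ± 0.182 (SD, n = 3 each) without overlap, and the log2 fold change was 0.90 (standard error 0.14, edgeR FDR = 1.6e-05). The readthrough gene INS-IGF2 covers 20.4% of its exon length and a further protein-coding model, ENSG00000284779, covers 37.9%, so the reads assigned to IGF2 depend on how these were treated. H19, the imprinted non-coding RNA gene beside IGF2, named here after its values were seen, had 35, 40 and 32 counts in OV3/SCR and 59, 63 and 64 in OV3/COX1KD cells (log2 fold change 0.83, edgeR FDR = 4.9e-04).

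Both receptor genes were also up-regulated, INSR by far the more. INSR (ENSG00000171105, chromosome 19 from 7112266 to 7294425) was at 5.78, 6.95 and 6.15 CPM in OV3/SCR and at 15.1, 11.9 and 14.9 CPM in OV3/COX1KD cells. The lowest OV3/COX1KD value, from replicate 2, was still well above the highest OV3/SCR value. The log2 fold change was 1.15 (standard error 0.10, edgeR FDR = 8.2e-09), and 1.26 without that replicate. The table gives 1 count per gene, so the A and B splice forms of INSR, which differ in their affinity for IGF2, were not separated.

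IGF1R (ENSG00000140443, chromosome 15 from 99191768 to 99507759) was at 23.4, 23.4 and 25.7 CPM in OV3/SCR and at 31.3, 25.7 and 29.8 CPM in OV3/COX1KD cells. Replicate 2 of OV3/COX1KD and replicate 3 of OV3/SCR were thus nearly level, and in raw counts they overlapped (645 against 665). The log2 fold change was 0.26 (standard error 0.066, 95% confidence interval 0.12 to 0.40, edgeR FDR = 0.00232), and 0.34 without that OV3/COX1KD replicate. This call was lost with total count scaling (log2 fold change 0.18, edgeR FDR = 0.0198) and without any of 4 libraries, replicates 1 and 2 of OV3/SCR and 1 and 3 of OV3/COX1KD, each left out alone (FDR between 0.0123 and 0.0207). Per kilobase of exon, IGF1R mRNA exceeded INSR mRNA 3.00 ± 0.335 times in control and 1.61 ± 0.0633 times in knockdown libraries (SD, n = 3 each), with ranges of 2.62 to 3.25 and 1.56 to 1.68 that did not overlap.

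**Figure D2:**
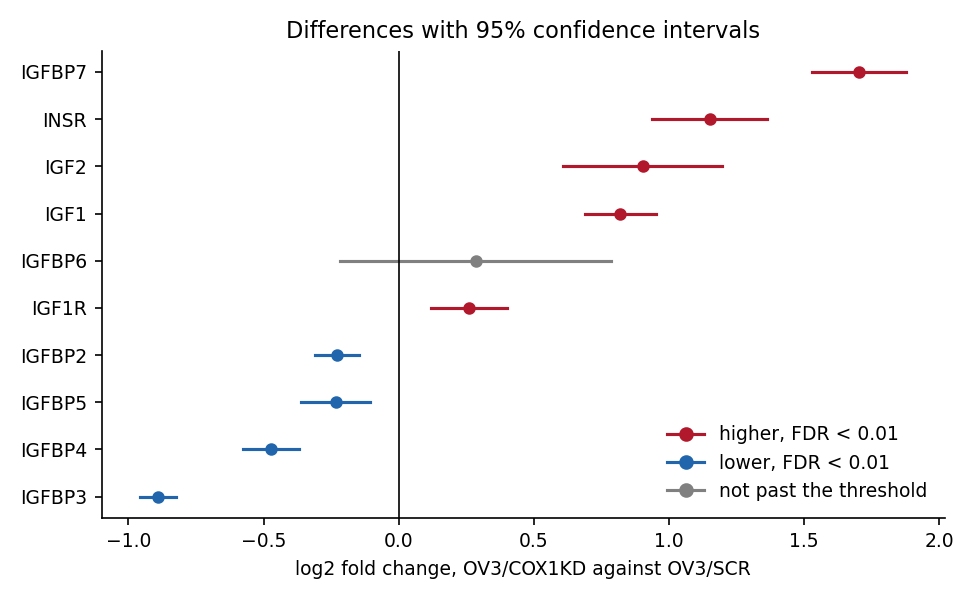
Log2 fold change of OV3/COX1KD against OV3/SCR for the 10 genes (points) with 95% confidence intervals (lines) from the edgeR fit, in order of the estimate. IGFBP3 to IGFBP2 lie below 0 and IGF1R, IGF1, IGF2, INSR and IGFBP7 above it, and the interval of IGFBP6 spans 0.

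Of the classical IGFBPs, IGFBP3 fell most. IGFBP3 (ENSG00000146674, chromosome 7 from 45951844 to 45961473), the main IGF carrier in blood, was at 201, 199 and 204 CPM in OV3/SCR and at 107, 107 and 112 CPM in OV3/COX1KD cells. This left 53.9% of the control level, with replicates that hardly varied, and the 95% confidence interval of the log2 fold change ran from -0.96 to -0.82 (edgeR FDR = 1.1e-14). IGFBP4 (ENSG00000141753, chromosome 17 from 38599702 to 38613977), which mostly restrains IGF action, was at 34.7, 35.6 and 35.4 CPM in OV3/SCR and at 25.7, 24.3 and 26.1 CPM in OV3/COX1KD cells. The groups were far apart relative to their spread, and the log2 fold change was -0.47 (standard error 0.049, edgeR FDR = 9.3e-08).

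IGFBP2 and IGFBP5 lie tail to tail on chromosome 2, with 7669 bases between them, and fell by nearly the same amount. IGFBP2 (ENSG00000115457, from 217497551 to 217529159), which carries an integrin-binding RGD motif, was at 74.3, 70.0 and 75.5 CPM in OV3/SCR and at 62.7, 61.9 and 62.9 CPM in OV3/COX1KD cells. Its log2 fold change was -0.23 (standard error 0.039, edgeR FDR = 4.6e-05). IGFBP5 (ENSG00000115461, from 217536828 to 217560272), which binds the extracellular matrix, was at 24.2, 26.5 and 27.9 CPM in OV3/SCR and at 23.1, 21.6 and 22.1 CPM in OV3/COX1KD cells. Here the lowest OV3/SCR library was only slightly above the highest OV3/COX1KD library, and the log2 fold change was -0.23 (standard error 0.060, edgeR FDR = 0.00246). The fall of IGFBP5 lost its call without replicate 2 or 3 of OV3/SCR or replicate 3 of OV3/COX1KD, with log2 fold changes between -0.23 and -0.18.

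IGFBP6 (ENSG00000167779, chromosome 12 from 53491220 to 53496129), which prefers IGF2 over IGF1, had 33, 25 and 20 counts in OV3/SCR and 34, 30 and 29 in OV3/COX1KD cells. The groups overlapped, and the log2 fold change was 0.29 (edgeR FDR = 0.32) with a 95% confidence interval from -0.22 to 0.79. The rise seen for IGF1R, 0.26, lies within this interval, so a difference of that size in IGFBP6 was not excluded.

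IGFBP7 (ENSG00000163453, chromosome 4 from 57896939 to 57976551), a relative of the family with low affinity for IGFs that also binds IGF1R, rose most of the 10 genes. It was at 5.70, 5.22 and 5.92 CPM in OV3/SCR and at 19.6, 17.2 and 18.1 CPM in OV3/COX1KD cells. All OV3/COX1KD libraries were far above all OV3/SCR libraries, and the fitted fold change was 3.26 (log2 standard error 0.083, edgeR FDR = 1.1e-12). Exons of POLR2B on the other strand cover 13.5% of the exon length of IGFBP7, and POLR2B itself had a log2 fold change of -0.12. IGFBP7 is abundant in endothelial cells. Among the endothelial markers PECAM1 had no row under that symbol in the count table. CDH5 was at or under 3 counts in every library, and KDR lay between 38 and 45 counts. VWF had 40, 25 and 38 counts in OV3/SCR and 47, 34 and 52 in OV3/COX1KD cells (edgeR FDR = 0.129). TEK rose from 22, 12 and 11 to 31, 26 and 30 counts (edgeR FDR = 0.00584). The part of endothelial markers in the rise of IGFBP7 was not tested.

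Among tested genes starting within 1 Mb of each, 8 to 51 per locus, the median log2 fold change lay between -0.098 and 0.14. Around INSR, 11 of 44 neighbours were higher and 10 lower, and around IGFBP3, 2 of 8 were higher and 3 lower. The largest median was that around IGFBP7, where 4 of 8 neighbours were higher and 1 lower. Of all tested genes 25.8% were higher and 22.1% lower.

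Divided by exon length, the level of IGFBP3 mRNA was the highest of the 10 genes in both conditions and that of IGF2 mRNA the lowest. In OV3/SCR cells the order was IGFBP3 with 44.1 ± 0.573 CPM per kilobase (SD, n = 3), then IGFBP4, IGFBP2, IGFBP5, IGFBP7, IGF1R, IGF1, IGFBP6, INSR and IGF2 with 0.326 ± 0.0442 (SD, n = 3). The neighbours IGFBP4 and IGFBP2 overlapped between libraries, as did IGFBP6 and INSR, and the other neighbours did not. In OV3/COX1KD cells no neighbours in the order overlapped. IGFBP3 was at 23.8 ± 0.599 CPM per kilobase (SD, n = 3), followed by IGFBP2, IGFBP4, IGFBP7, IGFBP5, IGF1, IGF1R, INSR, IGFBP6 and IGF2. IGFBP7 thus passed IGFBP5 and IGF1 passed IGF1R, neither pair overlapping in either condition. IGFBP2 passed IGFBP4 and INSR passed IGFBP6, pairs that overlapped in OV3/SCR. With the longest transcript as the length, IGFBP2 was above IGFBP4 in both conditions and IGFBP7 was above IGFBP4 in OV3/COX1KD cells.

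The summed level of the 6 binding protein genes fell from 83.2 ± 1.33 to 62.3 ± 1.42 CPM per kilobase (SD, n = 3 each). IGFBP3 made up 53.0% ± 0.165 of it in the controls and 38.2% ± 0.868 in the knockdown cells, whereas IGFBP7 made up 3.49% ± 0.171 and 15.2% ± 0.798 (SD, n = 3 each). The shares of IGFBP2 (18.6% and 21.2%), IGFBP4 (19.2% and 18.5%) and IGFBP5 (4.87% and 5.53%) moved by at most a few percentage points. The summed ligand level rose from 1.86 ± 0.0776 to 3.31 ± 0.128 CPM per kilobase (SD, n = 3 each). Binding protein mRNA accordingly exceeded ligand mRNA 42.2 to 46.5 times in OV3/SCR and 18.3 to 19.2 times in OV3/COX1KD libraries. These sums describe mRNA and depend on the gene lengths used.

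**Figure D3:**
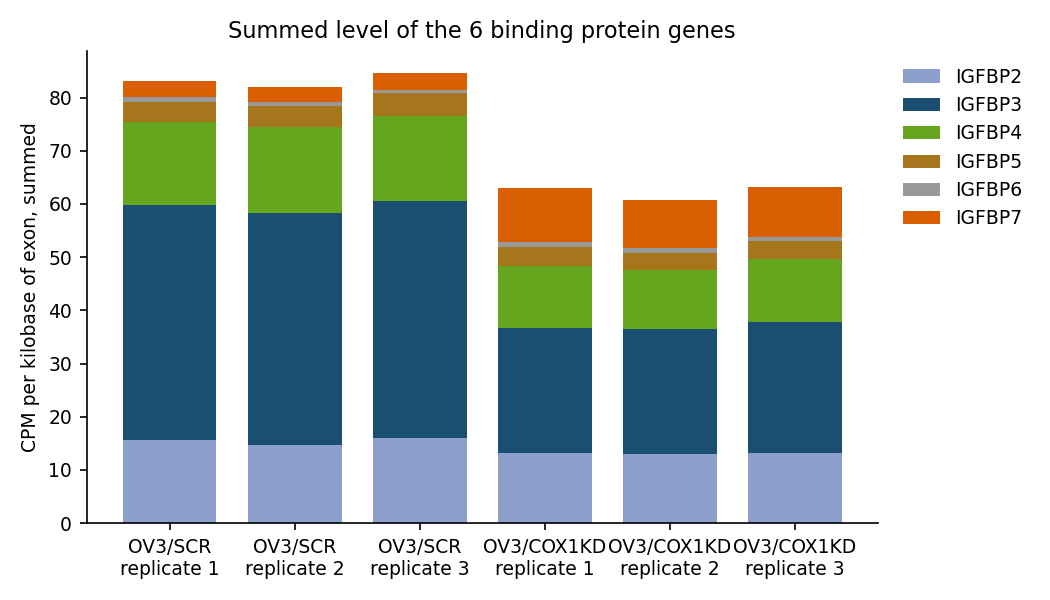
CPM per kilobase of exon of IGFBP2 to IGFBP7, stacked for each of the 6 libraries. The stacks reach 81.9 to 84.6 in OV3/SCR and 60.7 to 63.2 in OV3/COX1KD libraries, with a smaller IGFBP3 and a larger IGFBP7 segment in the latter.

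Of 54 further pathway genes in 4 lists, 46 were tested, of which 15 were higher and 10 lower in OV3/COX1KD cells at an FDR under 0.01. This is 54.3% of those tested, near the background of 47.9% (25.8% higher and 22.1% lower), and their median log2 fold change was 0.035.

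Among other receptors and carriers, 3 of 4 tested genes rose, where 25.8% of all tested genes did, and the list median was 0.49. LRP1, an endocytic receptor that also binds IGFBP3, rose from 920, 970 and 1007 counts to 2339, 1683 and 2347 counts (log2 fold change 1.17, edgeR FDR = 3.6e-10), with replicate 2 of OV3/COX1KD again the lowest of its condition. Its log2 fold change was 1.30 without that replicate. TMEM219, a cell death receptor for IGFBP3, had a log2 fold change of 0.65 (edgeR FDR = 8.6e-09). IGF2R, which takes up IGF2 for breakdown without a kinase signal, had a log2 fold change of 0.33 (edgeR FDR = 4.9e-05). The other tested gene, IGFALS, named after its values were seen, encodes the acid-labile subunit that joins IGF and IGFBP3 in blood and had 16 to 31 counts per library and an FDR of 0.982 by edgeR. IGFBP1 was at 0 counts in 5 libraries and at 1 in the other, so no fold change is given.

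Of 5 tested proteases of IGFBPs and inhibitors of such proteases, 3 rose and 1 fell, against 25.8% and 22.1% of all tested genes, with a median of 0.22. HTRA1, a secreted serine protease that cuts IGFBP5, had 71, 83 and 90 counts in OV3/SCR and 128, 170 and 160 in OV3/COX1KD cells (log2 fold change 0.94, edgeR FDR = 7.7e-06). The lysosomal protease gene CTSD rose by less (log2 fold change 0.27, edgeR FDR = 7.3e-07). The stanniocalcins, which inhibit the IGFBP4-cutting protease PAPPA, moved in opposite directions, STC1 from 243, 286 and 275 down to 135, 142 and 131 counts (log2 fold change -0.95, edgeR FDR = 1.1e-07) and STC2 slightly up (log2 fold change 0.21, edgeR FDR = 1.8e-05). PAPPA itself, named after its values were seen, had a log2 fold change of 0.22 (edgeR FDR = 0.0935), and PAPPA2 was at 0 or 1 count in every library.

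**Figure D4:**
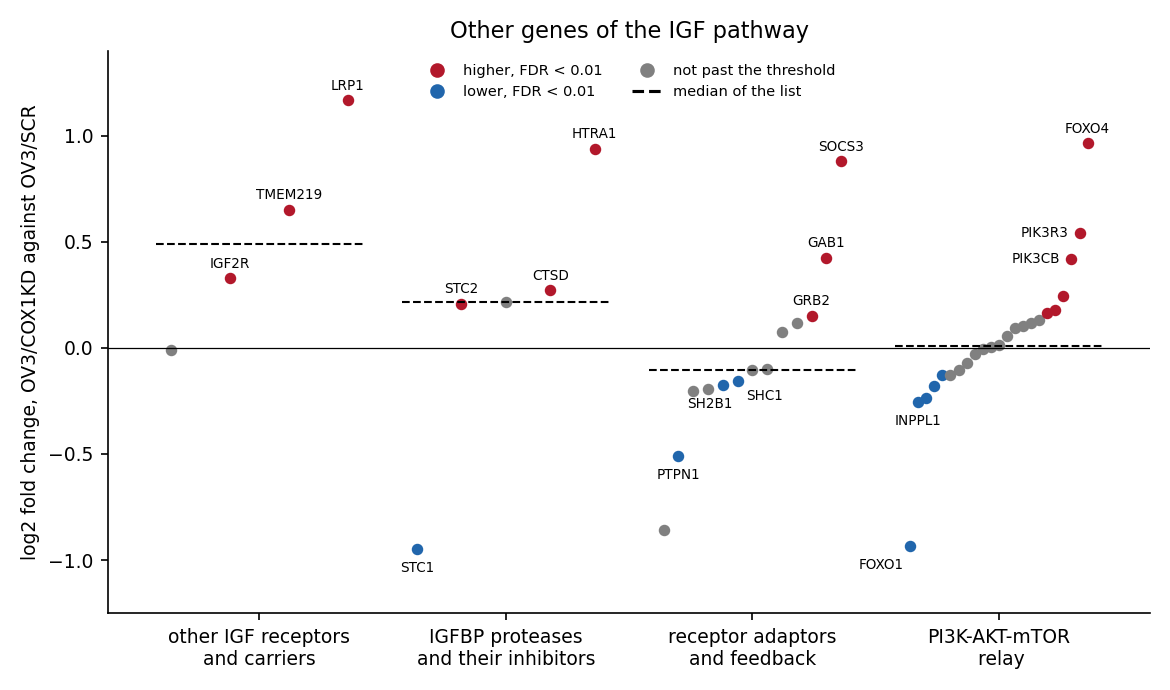
Log2 fold change of OV3/COX1KD against OV3/SCR for 45 of the 46 tested genes of the 4 pathway lists, each a point, colored by direction at an FDR under 0.01, with a dashed line at the median of each list (0.49, 0.22, -0.11 and 0.0082). Named points are the largest rises and falls shown of each list that passed the threshold.

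Of 13 tested adaptors and feedback genes, 3 were higher and 3 lower, shares near the 25.8% and 22.1% of all tested genes, with a median of -0.11. SOCS3, a feedback inhibitor of cytokine and insulin receptors, rose most (log2 fold change 0.88, edgeR FDR = 4.5e-13), and PTPN1, a phosphatase that switches off INSR and IGF1R, fell most of those past the threshold (log2 fold change -0.51, edgeR FDR = 9.7e-10). The docking protein gene GAB1 was higher (log2 fold change 0.42, edgeR FDR = 2.1e-05), as was GRB2, an adaptor to RAS (0.15, edgeR FDR = 0.00812). The adaptor genes SHC1 and SH2B1 were lower (log2 fold changes -0.16 and -0.18). IRS1 and IRS2, the main docking proteins of these receptors, named after their values were seen, did not pass the threshold, with 71 to 95 and 46 to 67 counts per library. IRS4 was at or under 3 counts in every library.

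In the PI3K-AKT-mTOR relay, 6 of 24 tested genes were higher and 6 lower, again near the 25.8% and 22.1% of all tested genes, with a median of 0.0082. The largest changes were in forkhead factors that AKT keeps out of the nucleus. FOXO1 fell from 645, 651 and 642 to 340, 295 and 359 counts (log2 fold change -0.93, edgeR FDR = 2.1e-10), and FOXO4 rose from 281, 267 and 216 to 481, 462 and 516 counts (log2 fold change 0.96, edgeR FDR = 2.6e-09). The PI3K subunit genes PIK3R3 and PIK3CB were higher (log2 fold changes 0.54 and 0.42), and INPPL1, a lipid phosphatase gene, was lower (-0.26).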

How the data were processed

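RNA-seq libraries were made with the Illumina TruSeq RNA kit from 3 passages each of OV3/SCR and OV3/COX1KD cells. Reads were aligned by the authors to hg19 with TopHat2 (version 2.0 in the submitters' processing notes), and raw counts per gene made with HTSeq were deposited. The gene annotation and the strand setting are not given in the sources used here. Conditions and replicate numbers came from the labels.

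The 34811 genes were tested with edgeR 4.0.16 in R 4.3.3. Libraries were scaled by TMM and filterByExpr kept 17309 genes. A quasi-likelihood model (glmQLFit, glmQLFTest) with condition as its single term gave the difference of OV3/COX1KD from OV3/SCR. The threshold was an FDR under 0.01 over all kept genes (Benjamini-Hochberg), the FDR cutoff of the study. The study itself used DESeq2, here an alternative (version 1.42.0). Standard errors were the log2 fold change divided by the square root of F. Positions and exon lengths came from GENCODE 44 on GRCh37, the same build as hg19, with an entry for 33556 genes. Promoter sequences were from RefSeq on GRCh38.p14, and no coordinates were moved between builds. The test was also run on simulated counts in which few genes changed, unlike these data. That run thus does not check the scaling or the FDR for these data. The 10 genes and the pathway and marker lists were chosen with earlier results of these data known. Named in the text are the 10 genes, up to 3 largest rises and 3 largest falls past the threshold in each pathway list, and listed genes at or under 3 counts in every library. A gene that this rule selects is not reported here. Alternatives were RLE scaling, total count scaling, no filter, at least 10 counts in every library, DESeq2 with and without a normal prior, a replicate block, and leaving out each library.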

Additional observations from a re-analysis of the deposited data

How the results depend on the processing

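Under the 13 alternatives no log2 fold change of the 10 genes changed sign, and 122 of 130 values stayed on their side of the threshold. The other 8 were losses of IGF1R and IGFBP5. The estimates ranged from 0.74 to 0.85 for IGF1, 0.80 to 0.99 for IGF2, 0.18 to 0.34 for IGF1R, 1.07 to 1.26 for INSR, -0.31 to -0.20 for IGFBP2, -0.97 to -0.87 for IGFBP3, -0.55 to -0.44 for IGFBP4, -0.31 to -0.18 for IGFBP5, 0.14 to 0.48 for IGFBP6 and 1.63 to 1.75 for IGFBP7. Total count scaling lowered the median log2 fold change of all tested genes from -0.0087 to -0.087, and the share of calls that were higher from 53.9% to 41.0% (3466 higher and 4978 lower, against 4473 and 3820). Leaving out each library in turn gave between 4 and 5 of the 10 genes higher and between 3 and 4 lower.

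With the replicate number as a block, 5 of the 10 genes were higher and 4 lower, and 4437 genes were higher and 3796 lower in all. The submitters' growth protocol speaks of replicate pairs but does not say that the numbers mark them. Same-numbered libraries deviated from their condition means with correlations across genes between 0.0045 and 0.042, and differently numbered ones with -0.027 to 0.018. These correlations run across genes, which are not independent, and cannot decide whether the numbers mark pairs.

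The share of IGFBP3 in the summed binding protein level rested on the lengths, and was 64.8% in OV3/SCR and 48.9% in OV3/COX1KD cells with the longest transcript in place of all exons. With that length 8 of the 10 genes kept their position in the order of levels in each condition. The low counts of IGFBP6 limited its test.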
